A study of Capra hircus with 4 samples.

Results

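The 237 long non-coding RNA (lncRNA) transcripts described here are those whose locus lay wholly between 74 and 77 Mb of goat chromosome 4, out of 226416 transcripts in the authors' table of endometrial lncRNAs. All were counted, whether the authors called them different between the stages or not. Membership went by position alone, but the window itself was chosen by the number, direction and clustering of the authors' calls in it, known from earlier results. Those values are therefore given as a description, with no test. No source used here names the genome build of the positions.

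Endometrium, the lining tissue of the uterus, was taken from dairy goats of the Xinong Saanen breed at gestational day 15, named receptive (2 libraries), and at gestational day 5, named pre-receptive (2 libraries). The goats had borne young before, were 24 months old, had synchronised oestrus and were mated naturally. Of 20 goats, 10 were taken for each stage, and the labels do not say whether a library is 1 goat or a pool. Ribosomal RNA was removed and the libraries were strand-specific and read from both ends. The tables name 2 sets of libraries, T and C, but which set is which stage is stated in no label or header, so every direction below is set T against set C. Values of single libraries (4 columns) and set means (2 columns) carry names that match no sample label and were not used. No spread between replicates is therefore given, and the depth behind the values is unknown. For the same reason the tissue was not checked against its marker genes.

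A lncRNA is a long transcript with no recognised protein. Many are transcribed between protein-coding genes, some run antisense to them, and some are known to act on the genes beside them while others have no known role. In early pregnancy of ruminants the endometrium passes, under progesterone, to a state in which the conceptus can elongate and attach.

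Of the 237 transcripts, 6 were called, and all 6 were listed higher in T in the authors' deposited table. They form a single stretch of 136 kb, from 75336421 to 75472460, and none of the 231 other transcripts of the window was called. The 6 calls are 2.53% of the transcripts in the window, against a background of 0.295% called over the whole table and 0.177% called higher in T. As the window was drawn around these calls, nothing is read from that difference.

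The first call of the stretch was TCONS_00362359 (chromosome 4, 75336421 to 75336991), which was listed at 0 in C, so that the authors' deposited table gives no finite ratio. Its p there was 5e-05 and its q was 0.0365. That p is the smallest listed for any call, and 12 calls have it, so it does not rank this call among them. TCONS_00362359 was the 1 call of the window with a q under 0.05. Over the whole table, 0.00442% of transcripts were called higher in T with such a q (10 transcripts).

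The other 5 calls were above 0 in both sets. TCONS_00362362 (75374878 to 75378046) was 6.72-fold higher in T, a log2 change of 2.75, where the authors' deposited table gives p = 0.00495 and q = 0.457. TCONS_00362364 (75388064 to 75389667) was 11.1-fold higher, a log2 change of 3.47, where the authors' deposited table gives p = 0.0117 and q = 0.542. TCONS_00362368 (75429554 to 75431045) was 11.9-fold higher, a log2 change of 3.57, where the authors' deposited table gives p = 0.0207 and q = 0.651. These 3 calls differ in the size of the ratio by less than 1 unit of log2, and none passed a q of 0.05.

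The last locus of the stretch, XLOC_317910 (75431108 to 75472460), held 2 called transcripts that share the identifier of their transcription start, TSS335201. TCONS_00362370 had a log2 change of 3.53 (11.5-fold) and TCONS_00362369 one of 3.23 (9.39-fold) in the authors' deposited table. In the authors' deposited table TCONS_00362370 had p = 0.0004 and q = 0.165, and TCONS_00362369 had p = 0.0325 and q = 0.786. Reads of a shared part can be assigned to either transcript of such a pair, so the 2 are not separate observations. The 6 calls thus stand for 5 gene identifiers.

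**Figure D1:**
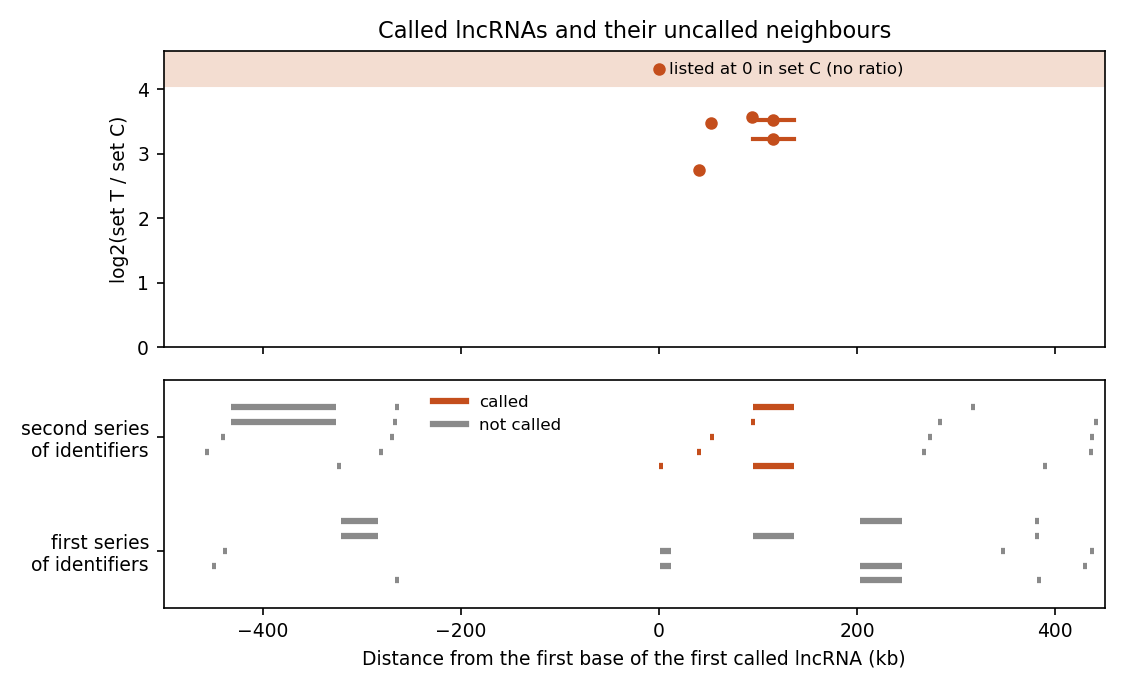
Called lncRNAs and their neighbours, by distance in kb from the first base of the first call. Upper panel, log2 of set T over set C from the authors' deposited table for the 6 calls, with the call listed at 0 in C drawn in the shaded band; lines show the locus and dots its middle. Lower panel, all lncRNA loci, called or not, by series of identifiers (loci under 4 kb are drawn 4 kb wide and rows within a series only keep loci apart). The 6 calls lie together in the second series, and the 3 transcripts of the first series in the same stretch, in 2 listed loci, were not called.

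The stretch is bordered by uncalled transcripts and by gaps in the lncRNA table. The authors list changes for calls only, so whether an uncalled neighbour was tested, or changed, is not known here. Before it, no lncRNA locus lay within 264 kb, and the nearest held TCONS_00351985 and TCONS_00362353, both uncalled, and ended at 75072252. After it, the next locus began 66.5 kb on, at 75538981, and held 3 uncalled transcripts. The nearest calls outside the window were far off. TCONS_00351259 lay 7.37 Mb before the stretch (67965361 to 67965773), was listed at 0 in C and stands in the authors' deposited table with a p of 0.0108 and a q of 0.519. On the other side, 9.43 Mb away, TCONS_00363125 and TCONS_00352720 shared a locus (84904122 to 84904476) and were both listed at 0 in C in the authors' deposited table, the first with p = 0.0041 and q = 0.44 and the second with p = 0.0129 and q = 0.551. Between these neighbours lay 1378 transcripts. As the neighbours are the nearest calls, only the same 6 can be called among them.

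Inside the stretch, 9 transcripts were listed and 6 were called. The 3 that were not called were TCONS_00351986 and TCONS_00351987, in a locus of 11037 bases just after the first call (75337076 to 75348113), and TCONS_00351989, whose listed locus is the same as that of XLOC_317910. The identifiers of chromosome 4 form 3 series, each ascending with position. All 6 calls belong to the second series and all 3 uncalled transcripts to the first. This is not particular to the stretch. Of the 24 groups of at least 3 neighbouring calls described below, 22 held calls of 1 series only. Over the window, 131 transcripts were of the second series and 106 of the first, with 0 calls in the first. On the whole chromosome both series held calls, 29 of 5169 in the second and 16 of 4977 in the first, and the third series held 2 transcripts, neither called. The tables used here do not give the strand, so whether a series is a strand was not tested.

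The gaps between successive called loci were 37887, 10018, 39887 and 63 bases. The calls carry gene identifiers from XLOC_317900 to XLOC_317910, a range of 11 numbers, of which 5 occur in the lncRNA table. All 5 are called ones. The other numbers of the range were not analysed here.

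The sizes of the changes can be set beside those of other calls. Over the whole table, 47 calls were higher in T and above 0 in both sets (0.0208% of transcripts), and 5 of them (10.6%) lay in this stretch. The 5 had a median log2 change of 3.47 (range 2.75 to 3.57), against a median of 2.79 for the other 42, from the authors' deposited table. By size they ranked 11, 13, 14, 19 and 28 of 47, so that 4 of the 5 were in the upper part of the list and none among its 10 largest. The larger part of the higher calls, 354, was listed at 0 in C, and the stretch held 1 of these. The call listed at 0 in C had a locus span of 570 bases, and the median span of those 354 calls was 571 bases. For the 47 calls above 0 in both sets the median span was 3168 bases.

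**Figure D2:**
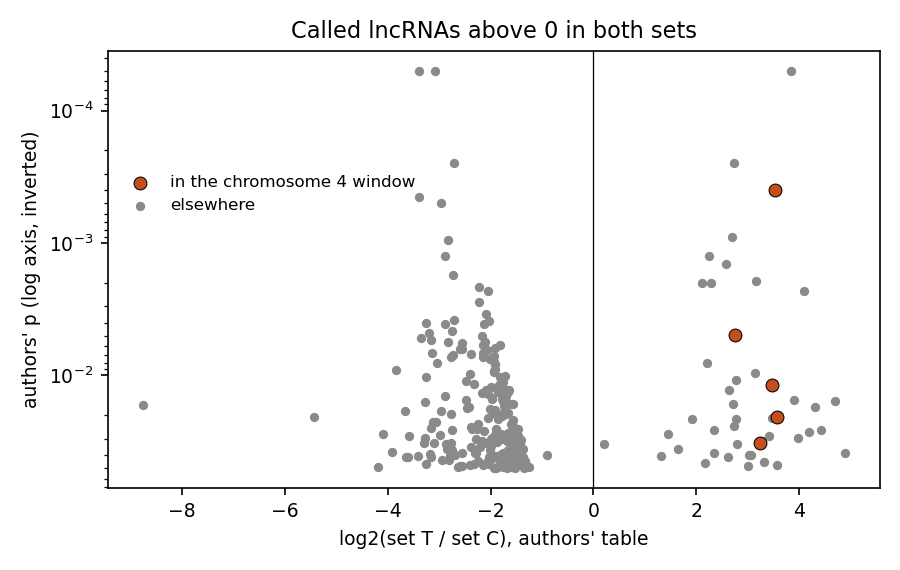
Change and p-value of the called lncRNAs above 0 in both sets, from the authors' deposited table. The x axis gives log2 of set T over set C and the inverted log y axis gives p; 280 of 284 calls are drawn, as 4 with a log2 change of 10 or more in size are left out. The 5 calls of the chromosome 4 window sit between 2.75 and 3.57, with p from 0.0004 to 0.0325.

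The stretch was 1 of 24 runs of at least 3 calls, where a run joins successive calls at gaps of at most 100 kb. Of these runs 5 were all higher, 18 all lower and 1 mixed. The chromosome 4 stretch shared the highest number of calls among the higher runs, 6, with the run on chromosome 11 at 18491954 to 18611092. It had 5 calls above 0 in both sets, and the chromosome 11 run had 4. Calls made up 66.7% of all transcripts inside the chromosome 4 stretch and all 6 of the 6 transcripts of the same series of identifiers. In the other 23 runs, the median share was 33.3% of all transcripts inside, with a range of 10.9 to 100%. Of the transcripts in the same series as the calls, the median share in those runs was 50%. A full share of the same series was also found in a run of 3 calls on chromosome 19. A run starts and ends at a call by its definition, so short runs have high shares, and no test of the difference was made.

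**Figure D3:**
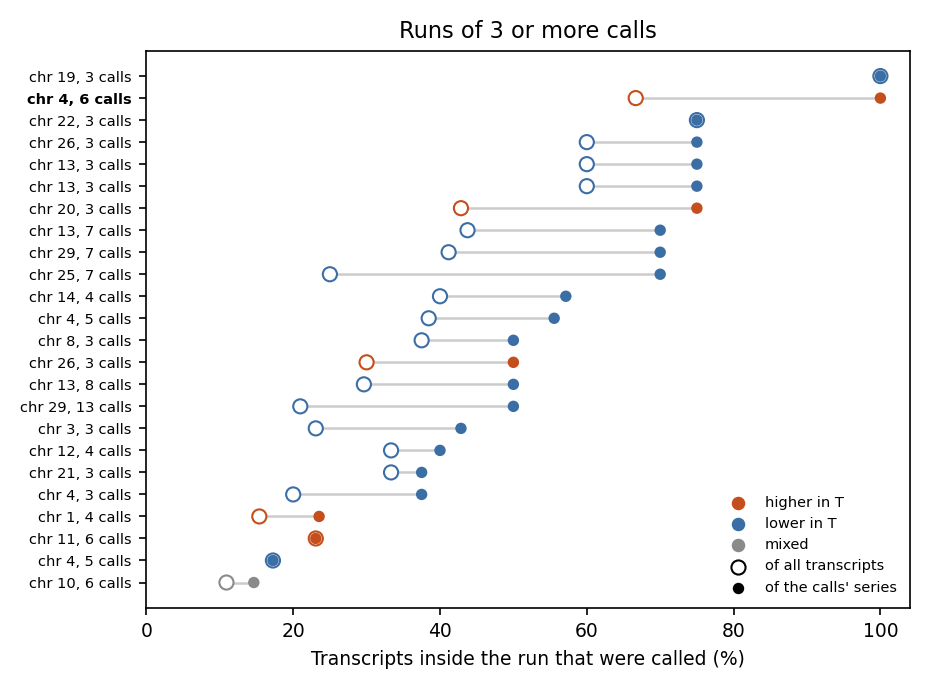
Share of transcripts that were called inside each of the 24 runs of at least 3 calls, in percent. Open circles give the share of all transcripts inside a run and filled circles that of the transcripts in the same series of identifiers as the calls; orange is all higher in T, blue all lower and grey mixed. The chromosome 4 stretch, in bold, stands at 66.7% and 100%.

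The comparison windows on chromosomes 13, 25 and 29 held mostly or only lower calls. Higher direction was not particular to this stretch, as runs of higher calls also lay on chromosomes 1, 11, 20 and 26. At 22 to 25 Mb of chromosome 13, 18 of 253 transcripts were called, 1 higher and 17 lower. At 29 to 32.5 Mb of chromosome 25, 7 of 310 were called, all lower. At 9.5 to 10.5 Mb of chromosome 29, 20 of 122 were called, all lower. The median log2 changes of calls above 0 in both sets were -1.99, -2.02 and -1.76 in those windows, from the authors' deposited table, against 3.47 in the chromosome 4 window. Among the other runs of higher calls, the medians were 2.65 on chromosome 11, 2.70 on chromosome 20 and 2.80 on chromosome 26, and the run on chromosome 1 had no call above 0 in both sets. The runs of lower calls had medians from -3.25 to -1.50 in the authors' deposited table, and the one at -3.25 is on chromosome 4 itself (47020213 to 47062987). The windows were chosen for their calls and each run holds few of them, so these sizes are a description.

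Neither the stretch nor the window has a predicted target gene in the deposited tables. None of the 6 calls was paired with a cis target, whereas 255 of all 668 calls were. Of the 15 target genes on chromosome 4, 0 lay within 5 Mb of the window. The 6 calls were the only ones in that range, so this 0 restates that they had no target. The nearest target genes on either side were SKAP2, an adaptor of immune cell signalling (66670220 to 66833465), and SLC13A1, a sulphate transporter (84936467 to 85038222). Because the deposited target prediction covers called lncRNAs only, the table gives no value for genes beside the uncalled ones.

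The genes of the neighbourhood were placed through the lncRNAs that carry a gene name. In and around the window, 9 genes were named in this way. RefSeq's genes of the ARS1.2 assembly hold all 9 on chromosome 4, in exactly the opposite order (8 of 8 neighbouring pairs). The stretch began 326 kb after the locus of the lncRNAs named for LOC102187025 and ended 2.07 Mb before that named for LOC102188920. In RefSeq 7 protein-coding genes lie between these genes. In the order of the deposited positions they are STK17A, a serine/threonine kinase; HECW1, a ubiquitin ligase; MRPL32, a protein of the mitochondrial ribosome; PSMA2, a proteasome subunit; C4H7orf25; GLI3, a transcription factor of hedgehog signalling; and INHBA, the subunit of activin A. Where the stretch lies among them was not resolved, since the deposited positions and the ARS1.2 assembly are not known to be the same build. None of the 7 genes is a predicted target of any call. No other call lay within 7.37 Mb of the stretch, so this restates that the 6 calls had no target. The expression of the 7 genes was not analysed here.

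The other 231 transcripts give the setting of the stretch. Of all 237, 231 (97.5%) were intergenic (class u) and 6 (2.53%) ran antisense over an exon of a known gene (class x), against 98.3% and 1.4% over the whole table. The 6 antisense transcripts were TCONS_00362256 over NACAD, a relative of the nascent polypeptide-associated complex, TCONS_00362270 over LOC102182195, TCONS_00362315 over POLD2, a subunit of DNA polymerase delta, TCONS_00362323 over POLM, DNA polymerase mu, and TCONS_00362342 and TCONS_00362343 over LOC102187025. All 6 lay before the stretch, between 74085238 and 75010448, and none was called.

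Transcripts were unevenly spread. The first Mb of the window held 55 of them, the second 68 and the third 114. Of 30 bins of 100 kb, 5 held none and the fullest held 22, with a median of 5. The widest spaces without a lncRNA locus were 330 kb, from 76287862 to 76617718, and the 264 kb that end at the stretch. The bins of the stretch itself held 5 and 4 transcripts, at and just under the median of the window. The table holds mostly intergenic transcripts, and a space without them says nothing about transcription of annotated genes there. The window as a whole had 79.0 transcripts per Mb, against 89.7 over the table. Of 827 full windows of 3 Mb along the chromosomes, 278 (33.6%) held fewer transcripts, and the median window held 266.

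**Figure D4:**
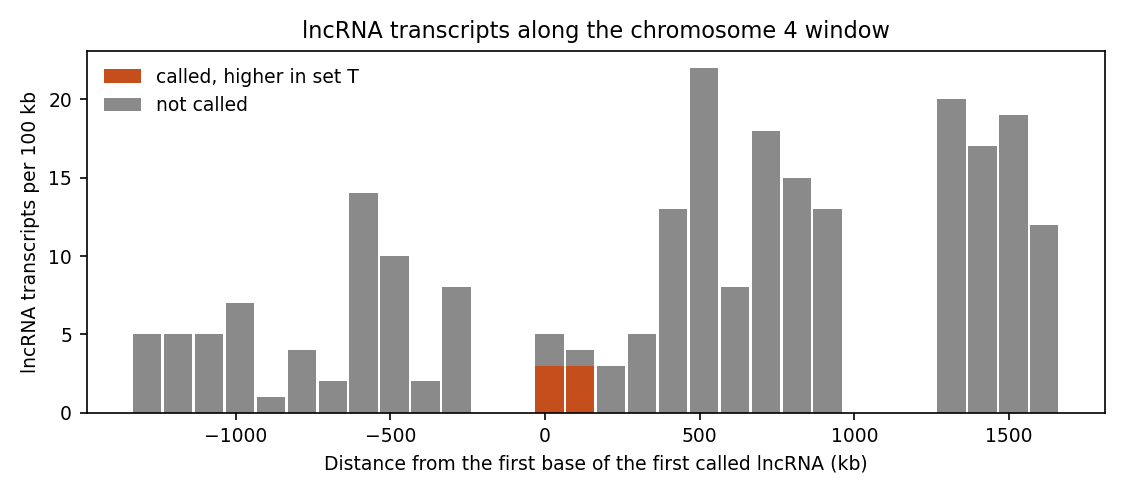
Number of lncRNA transcripts per 100 kb along the window, by distance in kb from the first base of the first call. Orange marks transcripts called higher in T and grey those not called; the 2 bins with calls hold 5 and 4 transcripts, and the fullest bin holds 22.

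The window began with TCONS_00351856 (74052106 to 74055642) and ended with TCONS_00362527 (76998445 to 76999106). Just outside its first border, TCONS_00362245 and TCONS_00362247 shared a locus that crosses 74 Mb (73996888 to 74050072) and were left out. Neither was called. The listed locus can hold several transcripts, as 78 of the 237 (32.9%) share theirs exactly with another, against 28.7% over the table. A span is therefore the extent of the locus and not the length of the RNA. The median span was 1545 bases, with quartiles of 1024 and 2566, and over the table it was 1424 bases with quartiles of 1047 and 2089.

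Transcripts with a long locus made up a larger share than in the table. A span of at least 20 kb was listed for 18 transcripts (7.59%), against 2.97% over the table, but these 18 share 6 loci. A single locus, at 76901904 to 76941776, held 7 of them. The share of loci that are long was not computed for the table, so the difference is one of transcripts only. The longest was the antisense locus at LOC102187025, of 106079 bases. The locus of TCONS_00362369 and TCONS_00362370 was the only one of the 6 with a call, and the next one after it, 42658 bases long, had none of its 3 transcripts called. Because transcripts of a locus share their span, no test was made.

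Coding scores of the members were close to those of the whole table. CPC and CNCI are scores of coding potential in which values below 0 mean non-coding. No transcript of the whole table scored above -1.0 on CPC or above -0.00041 on CNCI. Likeness on these scores was therefore largely fixed by which transcripts are listed. The median CPC score was -1.12 in the window and -1.13 over the table, and the median CNCI scores were -0.0283 and -0.0328. Among the 6 calls, CPC ran from -1.37 for TCONS_00362359 to -1.003 for TCONS_00362364, and CNCI from -0.0614 for TCONS_00362362 to -0.00041 for TCONS_00362359. The called members therefore lay inside the range of the uncalled ones on both scores. TCONS_00362377 stood apart, with a CNCI score of -3.63 at 75601555 to 75603348, 129 kb after the stretch. The next lowest score of the window was -0.385, and 4 transcripts of the whole table, with this one, scored as low. It was not called.

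**Figure D5:**
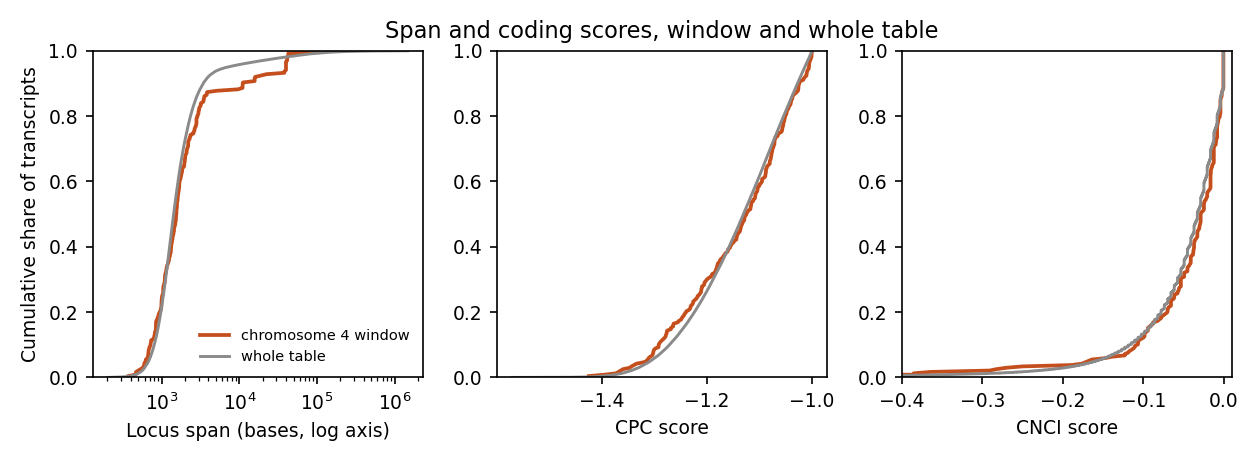
Cumulative share of transcripts by locus span in bases (log axis), CPC score and CNCI score, for the 237 transcripts of the chromosome 4 window (orange) and all 226416 of the table (grey). The curves lie close together apart from the spans of 20 kb or more, 7.59% in the window and 2.97% in the table; the CNCI axis stops at -0.4, which leaves out the transcript at -3.63.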

How the data were processed

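The 4 RNA libraries of goat endometrium, 2 for each stage, underlie the tables. The tools are Cuffdiff, Cufflinks, TopHat and TopHat2 per the submitters' processing notes, which give neither their versions nor their roles. None of the sources used here names a genome build. Each transcript's CPC and CNCI score was deposited by the authors. Changes are the authors' log2 values of set T over set C, infinite where one set is at 0. A call with a positive infinite ratio is given here as listed at 0 in C, and one with a negative infinite ratio as listed at 0 in T. The p-value and q-value are the authors', per the file headers, and only called lncRNAs (p under 0.05) are listed. How many transcripts the authors tested is not given, so shares use all transcripts of the lncRNA table. In all, 6 columns of library or set values were not used, because their names match no label, so the limma fit planned for them was not run.

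Members, called or not, were selected by position, and everything computed here is a count, median, gap or share, with no test. Members, lists and comparison windows were chosen with earlier results of these data known. All calls of the window were named, with the nearest calls outside it, the first, last and longest transcripts and the antisense ones. Any further transcript or gene was picked once its values had been seen. Of 9 gene names, 9 matched RefSeq (ARS1.2), used for names and order only. Finding of runs and of series was tested on simulated positions. Merging into loci was tested there only on spans that do not overlap, so the joining of overlapping ones was not tested. Python 3.11.15, numpy 2.4.6, pandas 2.3.3 and matplotlib 3.10.9 were used. No sequence is shown, as no genome was used.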

Additional observations from a re-analysis of the deposited data

How the results depend on the processing

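The count of 6 calls higher in T fell to 1 with q under 0.05 and to 3 with p under 0.01. The count of lower calls stayed 0, which a stricter limit cannot change. The count of higher calls was 6 with loci that overlap the window by a base, and 5 without calls listed at 0 in one set. The stretch of 136 kb held 6 calls at gaps of at most 50 and 200 kb. Its widest gap was 39887 bases and the nearest other call lay 7.37 Mb off, so neither limit could change it. The median log2 change of 3.47 was 3.14 over calls with p under 0.01. With 1 call per gene identifier, an alternative chosen after seeing the data like the next ones, it was 3.50. Without the call listed at 0 in C the stretch was 97.6 kb long. By gene identifiers, 2.14% of the window was called. With overlapping transcripts merged, there were 64.7 loci per Mb in the window and 75.8 over the table. For intergenic transcripts alone, the median span was 1522 bases in the window and 1409 over the table, and the median CNCI score of the window was -0.0246. The share called within loci of 1 strand was not run, because the tables used here give no strand. No paired analysis was possible because the library columns match no label and carry no replicate number. Apart from the columns, the 20 goats were divided between the stages, 10 at each. No goat was therefore sampled at both stages, and the design holds no pairing by animal. Leaving out each library was not run, since columns that match no label were not used. The smallest p that an exact permutation test allows for 2 against 2 libraries is 0.333. Depth is unknown, so whether the 231 uncalled transcripts could have been called was not tested.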
